A study of Mesocricetus auratus with 64 samples.

Results

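The genes described here make retinoic acid, break it down, bring its precursor retinol into cells and sense it. They were taken by name: Aldh1a1, Aldh1a2 and Aldh1a3 for synthesis, Cyp26a1, Cyp26b1 and Cyp26c1 for breakdown, Stra6 for retinol uptake, and the receptors Rara, Rarb and Rarg. Of these 10 names, 6 matched a gene among the 32303 in each long RNA count table, namely Aldh1a2, Aldh1a3, Stra6, Rara, Rarb and Rarg. Aldh1a1 and the 3 Cyp26 genes were not analysed here, so the breakdown arm has no value below.

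The samples are golden hamsters of the Syrian breed, either wild type (WT) or labelled Pld6 KO (KO). Pld6 encodes a protein of the mitochondrial outer membrane that is needed to make piRNAs, the small RNAs that silence transposons in germ cells. Testes came from animals aged 3 weeks, with 3 libraries from WT and 3 from KO. Single oocytes and embryos gave 26 libraries, 2 in each of 13 groups. Oocytes of both genotypes are labelled GV or MII, embryos of both genotypes 10PEA, 1C-20PEA, 33PEA or 54PEA, and a second group of KO MII oocytes is labelled D321. GV oocytes are immature and still have their large nucleus, and MII oocytes are mature and arrested in meiosis. The labels neither expand the terms PEA, 1C and D321 nor describe the KO allele, and they do not say whether the KO label of an embryo stands for the embryo, its mother or both. No library is tied to a named animal.

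Retinol circulates on a binding protein that STRA6 recognises at the cell surface. Inside the cell it is oxidised to retinal and then, by the ALDH1A enzymes, to retinoic acid, which CYP26 enzymes degrade. Retinoic acid binds receptors of the RAR family, which sit on DNA with an RXR partner and switch from repressing to activating their target genes. In the mouse testis this signal drives spermatogonia to differentiate and, through Stra8, to enter meiosis. Also in mouse, Sertoli cells, the somatic nurse cells of the tubule, use RARA, spermatogonia use RARG, and ALDH1A2 is found in germ cells.

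Testis libraries held 31572737 to 34257661 gene counts, and oocyte and embryo libraries 1544198 to 11031837. In the latter, ERCC spike-in RNA took a share of 0.361% to 77.8%, and at most 21.2% when the 54PEA stage is left aside. Rank correlations between the libraries of a group were 0.954 to 0.975 in testis and 0.434 in KO-54PEA, the group whose libraries stood furthest apart. Levels are gene counts scaled to library size with TMM factors (CPM), which allow comparison of one gene between samples but not of different genes, since they are not corrected for transcript length. A gene is called changed, or said to have risen or fallen, where edgeR's quasi-likelihood test gave a Benjamini-Hochberg adjusted p below 0.05 over all genes tested. Pld6 itself had 34.5 to 50.7 CPM in WT testis and 2.63 to 5.31 CPM in KO testis. In oocytes labelled KO-GV it stood at 25.1 and 38.1 CPM, against 34.3 and 35.1 CPM in WT-GV, so its level does not check the labels at that stage.

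In KO testis, Aldh1a2 fell to a trace of its WT level, Rarg and Stra6 fell, and Rara rose. The other synthesis gene, Aldh1a3, and the receptor Rarb did not pass the test. All 6 genes passed the filter on low counts, and 4 of them were called, while 58% of the 18024 genes tested were called in this comparison, 27.9% as higher and 30.2% as lower in KO. The libraries of the 2 genotypes did not overlap for 5 of the 6, against 66.1% of all genes tested. Both counts are near the background of this comparison, so the account below turns on which genes moved, which way and how far.

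**Figure D1:**
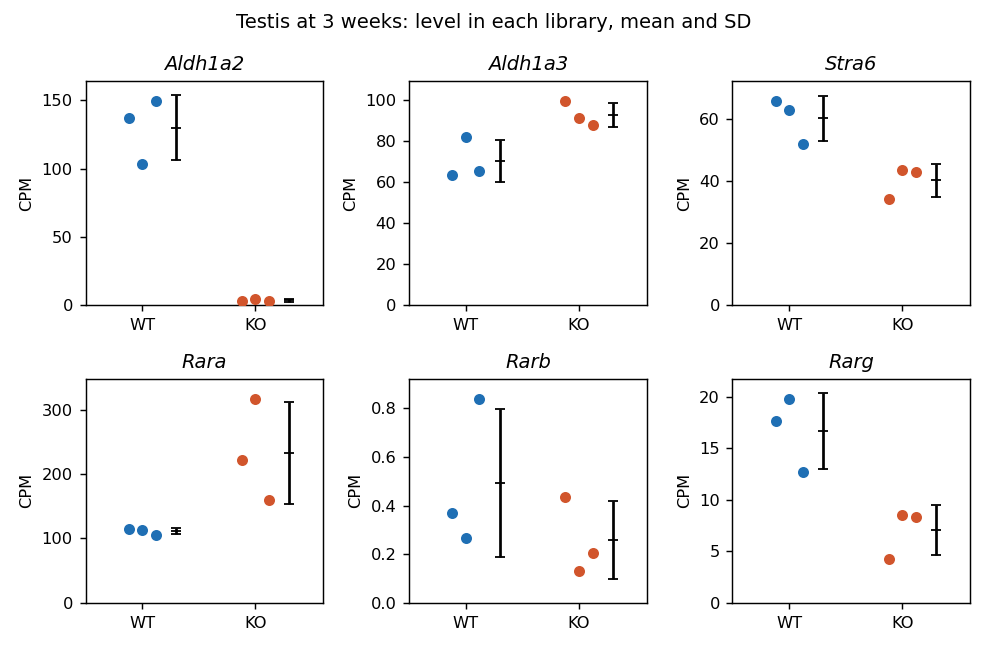
Level of each gene in CPM (vertical axis, from 0) in the 3 WT and 3 KO testis libraries at 3 weeks; points are libraries, and the bar beside them is the mean with its SD. Aldh1a2 falls from 103 to 149 CPM in WT to 2.84 to 4.74 CPM in KO, Rara is higher and Rarg and Stra6 lower in every KO library, and Rarb overlaps.

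Aldh1a2 encodes a retinal dehydrogenase, the enzyme that makes retinoic acid from retinal. It had 137, 103 and 149 CPM in the WT libraries and 2.84, 4.74 and 3.00 CPM in the KO libraries. Every KO library was far below every WT library. The change was −5.20 on the log2 scale (SE 0.29, adjusted p = 2.27e-06), a 36.8-fold lower level, and it stayed between −5.47 and −5.07 when any 1 library was left out.

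Aldh1a3 encodes a second enzyme for the same step. Its levels were 63.4, 81.7 and 65.4 CPM in WT and 99.1, 91.3 and 87.4 CPM in KO. The KO libraries were all above the WT libraries, by a small margin. The difference of 0.40 on the log2 scale (SE 0.18) missed the threshold at an adjusted p of 0.0871. Of the 6 libraries, leaving out KO replicate 3 took it past the threshold, at 0.0412.

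The balance of the 2 synthesis genes therefore shifted within each library. For each Aldh1a3 count there were 1.26 to 2.28 Aldh1a2 counts in WT and 0.0287 to 0.0520 in KO. This ratio does not depend on how libraries are scaled to each other, and it shows a change between genotypes, not which enzyme is the more abundant.

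Stra6 encodes the membrane receptor through which cells take up retinol from its plasma carrier. It had 65.6, 63.0 and 51.9 CPM in WT and 34.2, 43.6 and 42.9 CPM in KO. All KO libraries were below all WT libraries. The fall (log2 change −0.58, SE 0.20, adjusted p = 0.0293) was the weakest of the called changes. Its adjusted p was 0.126 without WT replicate 1, 0.0902 without WT replicate 2 and 0.0658 without KO replicate 1.

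Rara encodes the receptor that, in mouse, Sertoli cells depend on. WT libraries had 115, 113 and 106 CPM, and KO libraries 222, 316 and 159 CPM. The WT values lay close together, and the KO values were all higher and further apart. The rise was 2.09-fold (log2 change 1.06, SE 0.25, adjusted p = 0.00485), and its log2 size ranged from 0.78 to 1.28 when any 1 library was left out.

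Rarg encodes the receptor that, in mouse, serves spermatogonia. It had 17.6, 19.8 and 12.6 CPM in WT and 4.25, 8.51 and 8.34 CPM in KO. No KO library reached the lowest WT library. The fall was 2.37-fold (log2 change −1.24, SE 0.33, adjusted p = 0.00989).

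Rarb, which in many tissues is itself switched on by retinoic acid, was close to the limit of detection in testis. It had 52 counts over the 3 WT libraries and 24 over the 3 KO libraries, with levels of 0.268 to 0.837 CPM and 0.130 to 0.437 CPM. The groups overlapped, and the log2 difference of −0.91 (SE 0.64) had an adjusted p of 0.245. At this depth a difference in Rarb could not be shown.

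The receptors thus changed in unequal measure. There were 5.72 to 8.37 Rara counts for each Rarg count in WT libraries and 19.1 to 52.3 in KO libraries. As with the synthesis genes, the ratios of the genotypes did not overlap.

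**Figure D2:**
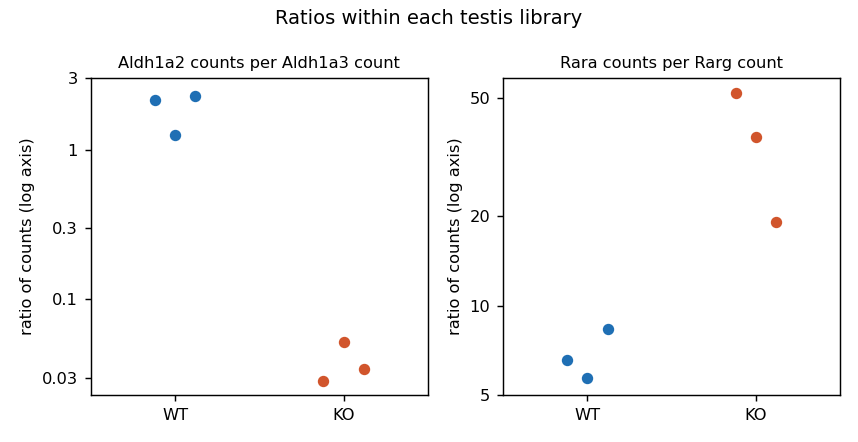
Ratio of the counts of 2 genes within each of the 3 WT and 3 KO testis libraries, on log axes; each point is 1 library. Aldh1a2 per Aldh1a3 lies at 1.26 to 2.28 in WT and 0.0287 to 0.0520 in KO, and Rara per Rarg at 5.72 to 8.37 in WT and 19.1 to 52.3 in KO.

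Markers of testis cell types moved with these genes. All 9 measured markers of meiotic germ cells fell, and their summed level was 1841 to 2978 CPM in WT and 23.4 to 50.8 CPM in KO. None of the 9 was without a count in KO. Of 4 tested spermatid markers 3 fell. The 6 measured ones summed to 262 to 471 CPM in WT and 4.42 to 4.96 CPM in KO. Nearly all of the WT sum was Dkkl1, with a mean of 367 CPM in WT and 1.24 CPM in KO. Izumo1 lay the other way, at 2.17 to 2.57 CPM in WT and 3.00 to 3.85 CPM in KO, without being called. Tnp1, a nuclear protein of late spermatids, was at or near 0 in both genotypes, with 2 counts in WT and 0 in KO. Among markers of spermatogonia, 6 of 10 fell and 1 rose, with a median log2 change of −1.51. Their summed levels were 431 to 500 CPM in WT and 305 to 363 CPM in KO. Most of both sums was Dmrt1, with means of 267 CPM in WT and 251 CPM in KO, so the sums say little of the other markers. Sertoli cell markers went the other way, with 11 of 12 higher and a summed level of 7169 to 7801 CPM in WT and 16410 to 23741 CPM in KO. All 5 measured Leydig cell markers rose, from 233 to 328 CPM in WT to 2339 to 2795 CPM in KO. Peritubular cell markers summed to 622 to 881 CPM in WT and 571 to 884 CPM in KO, with 0 of 6 higher and 1 lower. Of 6 endothelial markers 4 rose and 1 fell, and 5 of 7 macrophage markers rose. In whole tissue, fewer cells of a type and less RNA per cell cannot be told apart, and the part of these shifts in the changes of the retinoid genes was not tested.

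Set against these markers, the genes kept different distances. Per 100 meiotic marker counts there were 5.54, 5.60 and 5.01 Aldh1a2 counts in WT and 6.20, 20.3 and 5.90 in KO, so relative to that list Aldh1a2 was not lower in any KO library. Rarg was higher relative to the same list, at 0.425 to 1.07 counts per 100 marker counts in WT and 9.26 to 36.4 in KO. Per 100 Sertoli marker counts, Rara had 1.47 to 1.55 counts in WT and 0.972 to 1.33 in KO, and was thus lower in every KO library. Aldh1a3 had 0.813 to 1.12 in WT and 0.384 to 0.533 in KO on that measure, and Stra6 0.724 to 0.864 in WT and 0.181 to 0.262 in KO.

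The direction of Rara and Aldh1a3 turned when the whole fit was scaled to the Sertoli cell markers. That scaling moves every gene down by about the same amount, the median log2 change of all genes going from 0.03 to −1.35, so it can turn a rise but not a fall. Under it Rara had a log2 change of −0.37 (adjusted p = 0.155) and Aldh1a3 one of −0.98 (adjusted p = 0.00481). Aldh1a2 was then at −6.62, Rarg at −2.62 and Stra6 at −1.96. The rise of Rara is therefore a rise relative to all gene counts of the testis, and not relative to Sertoli marker counts.

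**Figure D3:**
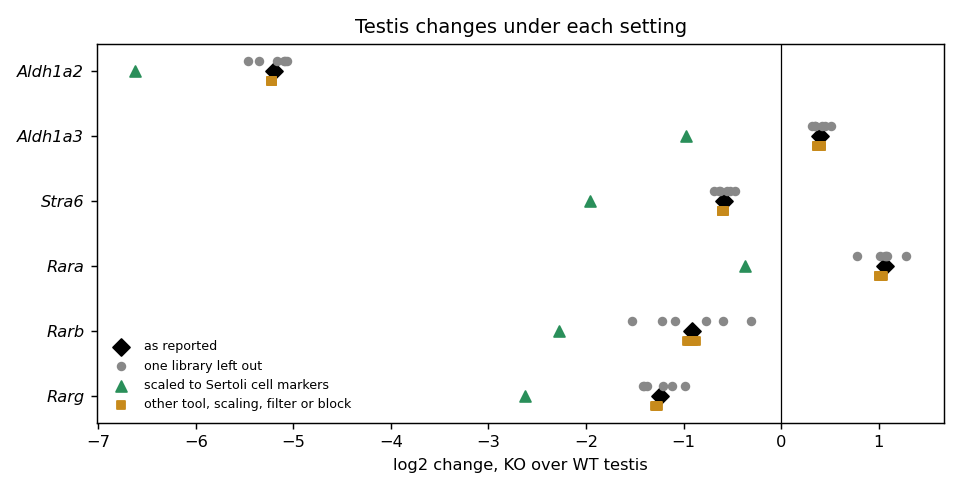
Log2 change of each gene, KO over WT testis (horizontal axis), as reported and under each other setting: 1 library left out, another tool, scaling, filter or replicate block, or scaling to Sertoli cell markers. Rara and Aldh1a3 change sign under the Sertoli marker scaling, at −0.37 and −0.98, and the other 4 genes stay below 0 throughout.

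Around these genes, 76 further genes of retinoid handling, receptor partners and targets were listed, of which 66 matched a gene of the tables and 55 were tested in testis. Of these, 13 rose and 15 fell, with a median log2 change of 0.07 against 0.03 for all genes tested. The share called was again near the 58% of all genes. No test compared one list with another.

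Among carriers of retinol and retinoic acid, 1 of 5 tested genes rose and 1 fell, with a median log2 change of 0.27. Crabp1, a cytoplasmic protein that binds retinoic acid, fell from a mean of 20.6 to 0.736 CPM (log2 change −4.80, SE 0.29, adjusted p = 2.99e-06). Fabp5, a fatty acid carrier that can also carry retinoic acid, rose from 718 to 1085 CPM (adjusted p = 0.0380), but lost the call when any of 5 of the 6 libraries was left out, with adjusted p up to 0.126.

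Of 9 tested genes listed for the formation or conversion of retinol and retinal, 2 rose and 3 fell (median log2 change −0.27). Rdh10, the main enzyme that oxidises retinol in mouse embryos, fell from 15.7 to 6.87 CPM (adjusted p = 0.0196), a call lost without WT replicate 1 or KO replicate 2 at adjusted p of 0.0650 and 0.0720. Dhrs3, which turns retinal back to retinol and is induced by retinoic acid, rose from 8.80 to 26.5 CPM (log2 change 1.59, adjusted p = 0.00374). Rdh12, another retinal reductase, rose from 2.63 to 8.04 CPM (adjusted p = 0.00153). Adh7, an alcohol dehydrogenase that accepts retinol, went from 10.4 to 4.43 CPM (adjusted p = 0.0395), and the call was lost without any of 5 libraries, with adjusted p up to 0.130.

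Genes that store retinol as esters or release it fell in 3 of 6 cases and rose in 1, with a median log2 change of −0.92. Lrat, the enzyme that esterifies retinol for storage, fell from 16.3 to 0.769 CPM (log2 change −4.40, SE 0.31, adjusted p = 5.92e-06). Dgat2, mainly a triglyceride enzyme that can also esterify retinol, fell from 59.7 to 5.92 CPM, and the lipase Pnpla2 from 116 to 44.7 CPM. The lipase Lpl rose from 6.84 to 45.2 CPM (log2 change 2.72, adjusted p = 7.81e-05).

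RXR genes and other receptor partners rose in 6 of 18 cases and fell in 1 (median log2 change 0.43). The main RXR genes did not pass, with Rxra at 69.8 CPM in WT against 100.6 CPM in KO (adjusted p = 0.0645) and Rxrb at 94.1 and 110.8 CPM (adjusted p = 0.298). The coactivators Ncoa1 and Ncoa2 rose by 0.73 and 1.08 on the log2 scale, the corepressor Nrip1 by 1.13, Tbl1xr1, a subunit of the NCOR corepressor complex, by 1.15, and the orphan receptor Nr2f2 by 1.37. Leaving out 1 library ended the call for Nrip1 in 4 cases, for Ncoa2 in 2 and for Ncoa1 in 1, with adjusted p up to 0.10, 0.0578 and 0.0536. Nr6a1, an orphan receptor of germ cells, fell from 32.0 to 15.8 CPM (adjusted p = 0.00886).

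Genes listed as retinoic acid targets in germ cells fell in 6 of 9 tested cases and rose in none. Their median log2 change was −2.14, and 30.2% of all genes fell. The list was not sorted by whether retinoic acid raises or lowers a gene, so its count does not measure the response. Stra8, the factor that retinoic acid induces before meiosis, had 53.6, 49.99 and 47.3 CPM in WT and 0.312, 0.260 and 0.749 CPM in KO. No KO library came near a WT library, and the fall was 114-fold (log2 change −6.83, SE 0.40, adjusted p = 2.47e-06). Meiosin, the partner of STRA8, fell from 217, 169 and 180 CPM to 45.1, 45.6 and 63.1 CPM (log2 change −1.88, adjusted p = 8.36e-05). Rec8, the meiotic cohesin subunit, had 38.0, 44.7 and 31.6 CPM in WT and 10.9, 4.45 and 10.6 CPM in KO (log2 change −2.14, adjusted p = 6.77e-04). Sohlh1, a spermatogonial transcription factor, fell from 77.8 to 4.10 CPM, and Nanos3, an RNA-binding protein of spermatogonia, from 6.53 to 1.46 CPM. Kit, the receptor tyrosine kinase of differentiating spermatogonia, overlapped between the genotypes, with 43.9, 50.8 and 31.8 CPM in WT and 41.3, 24.6 and 35.96 CPM in KO (adjusted p = 0.325). With Sertoli marker scaling Kit passed at a log2 change of −1.65 (adjusted p = 0.00125). The median of all genes lay at −1.35 under that scaling, so this call is not particular to Kit. Nanos3, Kit, Sall4, Zbtb16 and Dmrt1 stand both in this list and in the list of spermatogonial markers above, so the 2 counts are not independent.

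Of 14 tested targets known from other tissues, 5 rose and 2 fell, with a median log2 change of 0.65, beside 27.9% of all genes higher and 30.2% lower. Tshz1, a zinc finger homeobox factor, rose from 26.4 to 56.4 CPM (log2 change 1.09, adjusted p = 0.00132). Dhrs3, Nrip1 and Lrat belong to this list too and have been described. Fabp5, Nr2f2, Tbl1xr1, Nrip1, Ncoa1, Ncoa2 and Tshz1 lay below 0 under the Sertoli marker scaling, as any rise smaller than that uniform shift must.

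**Figure D4:**
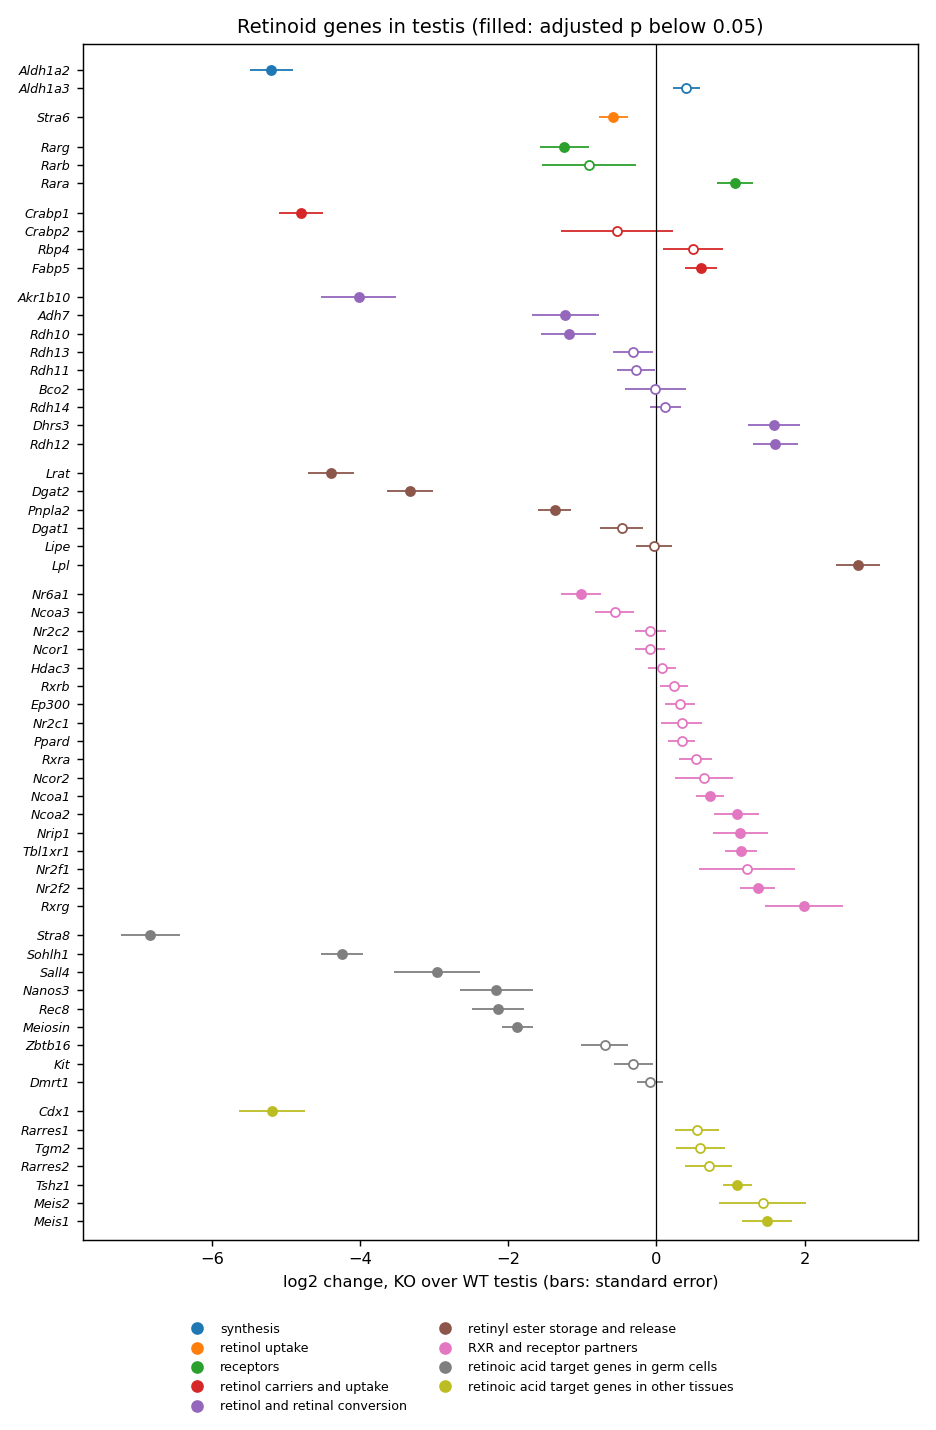
Log2 change in KO over WT testis, with its standard error, for the retinoid genes tested and reported here, coloured by list (a gene in several lists is drawn once, under the first); filled points have an adjusted p below 0.05. Stra8 at −6.83, Aldh1a2 at −5.20, Cdx1 at −5.19 and Crabp1 at −4.80 lie furthest below 0, and Lpl at 2.72 furthest above. Sertoli marker scaling would move all points left by about the same amount, which takes Rara and the smaller rises below 0.

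In oocytes and embryos Rarb was the member of the set with reads in the most libraries. Rarb, near 0 in testis, had 60878 counts over the 26 libraries and was counted in 23 of them. Aldh1a3 and Stra6 had no count in any of the 26, which allows up to 0.297 to 0.728 CPM per library at a floor of 3 counts. Rara had 46 counts in 9 libraries, Rarg 326 in 16 and Aldh1a2 655 in 14. Granulosa and cumulus cell markers summed to 0 to 21.3 CPM in the oocyte and embryo groups, with Ptx3 at 0 in all, and oocyte markers to 3400 CPM or more in every oocyte library. The testis was sequenced from total RNA with another kit and fitted apart, so its levels and those of oocytes are set side by side without a test.

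Along the WT stages Rarb was high in the oocyte and the earliest embryo and then disappeared. It had 329 and 400 CPM at GV, 194 and 118 CPM at MII, 453 and 394 CPM at 10PEA, and 1351 and 989 CPM at 1C-20PEA. It then had 79.2 and 43.5 CPM at 33PEA and no count in either library at 54PEA. The 3 early steps did not pass the test, with log2 changes of −1.23 from GV to MII (adjusted p = 0.656), 1.44 from MII to 10PEA and 1.47 from 10PEA to 1C-20PEA (adjusted p = 1 for both).

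The 2 late steps did. From 1C-20PEA to 33PEA Rarb fell 19.1-fold (log2 change −4.25, SE 0.91, adjusted p = 0.00360), a step in which 20.6% of 17294 genes were called and the median gene moved by −1.23. The call was lost, at an adjusted p of 0.0578, without WT-33PEA replicate 2. From 33PEA to 54PEA it fell at least 331-fold, with the group without a count set to 3 counts in all (adjusted p = 6.42e-05), and with 7.08% of genes called. The libraries of neighbouring WT stages up to 1C-20PEA thus did not overlap in Rarb level, with 2 libraries per stage. Their steps did not pass a test that takes 1 spread per gene over all 13 groups. The steps from 1C-20PEA through 33PEA to 54PEA passed it.

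The libraries labelled KO gave another sequence of Rarb levels. KO libraries had 253 and 323 CPM at GV, 53.4 and 168 CPM at MII, 295 and 277 CPM at 10PEA, and 300.3 and 97.3 CPM at 1C-20PEA. At 33PEA they still had 518 and 654 CPM, and at 54PEA 0.479 and 0 CPM. KO levels lay below WT levels without overlap at GV, 10PEA and 1C-20PEA, overlapped at MII, and lay above WT at 33PEA. Of all genes tested, 28.1% did not overlap at GV, 27.9% at MII, 35.1% at 10PEA, 37.6% at 1C-20PEA and 40.8% at 33PEA.

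At 33PEA the KO level was 9.56-fold higher than WT (log2 change 3.26, SE 0.86, adjusted p = 0.0241), in a comparison where 10.1% of genes were called. All 4 libraries had enough reads to place them, with 8076 Rarb counts in KO and 716 in WT. Leaving out either WT-33PEA library, KO-33PEA replicate 2 or WT-54PEA replicate 2 ended the call, with adjusted p of 0.0639 to 0.170. Scaling to ERCC RNA also ended it, with a log2 change of 2.41 and an adjusted p of 0.394.

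At 1C-20PEA the KO level was 5.88-fold lower than WT, a log2 change of −2.56 (SE 0.84). Its unadjusted p was 0.00597, but the adjusted p was 0.728, and edgeR called 0 genes at this stage, with 1048 genes at an unadjusted p below 0.05. DESeq2 called 569 genes there (3.29%) and limma voom 285 (1.65%), and both called Rarb, with adjusted p of 1.88e-04 and 0.0267. The differences at GV (log2 −0.34), MII (−0.49) and 10PEA (−0.56) had an adjusted p of 1. The D321 oocytes, with 223 and 166 CPM, overlapped WT-MII (log2 difference 0.32, adjusted p = 1).

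Oocyte markers, 7 genes such as Zp3 and Gdf9 whose RNA the embryo inherits from the oocyte, differed between the genotypes at the same stages. Their summed level at 1C-20PEA was 8732 to 11972 CPM in WT and 1930 to 4012 CPM in KO. At 33PEA it was 941 to 1014 CPM in WT and 4083 to 4662 CPM in KO, so it was lower in KO at the first stage and higher at the second, as Rarb was. This was not so at 54PEA, 10PEA and MII. At 54PEA the marker sum was 73.5 to 93.3 CPM in WT and 401 to 889 CPM in KO, where Rarb was at or near 0 in both. It averaged 5952 CPM in KO against 5198 CPM in WT at 10PEA, and 4035 against 3708 CPM at MII. Mean Rarb was lower in KO at both. At GV the sum averaged 10297 CPM in KO against 11788 CPM in WT, with mean Rarb also lower in KO. The sums of the genotypes overlapped at GV, MII and 10PEA. Gene by gene, 4 of the 7 were called higher in KO at 54PEA, 1 was called higher in KO at 33PEA and none was called at 1C-20PEA, while 4 fell in the WT step between those stages. The part of these marker levels in the Rarb differences was not tested.

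A test of whether the KO difference in Rarb was the same at all 6 stages gave an adjusted p of 0.0199, beside 9.4% of genes called. It was lost without WT-33PEA replicate 2 or WT-54PEA replicate 2, at 0.0713 and 0.0859, and with ERCC scaling at 0.732. The fit takes a single spread per gene over all stages, while rank correlations within groups were 0.776 and 0.709 at 33PEA and 0.811 to 0.943 from GV to 1C-20PEA.

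**Figure D5:**
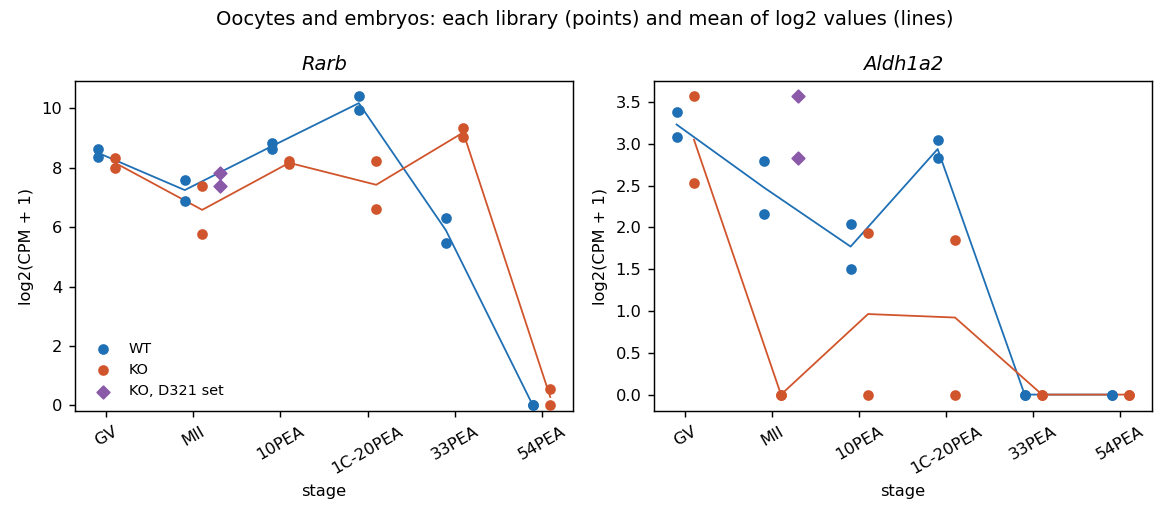
Rarb and Aldh1a2 in oocytes and embryos as log2(CPM + 1) by stage; points are libraries, lines join the means of the WT and KO groups, and diamonds are the second KO MII group, D321. Rarb is lower in KO than in WT at 1C-20PEA, higher at 33PEA and near 0 in both at 54PEA, and Aldh1a2 is at 0 in KO-MII and in every library from 33PEA on.

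Aldh1a2 was present at a low level in oocytes and early embryos. WT libraries had 7.43 and 9.45 CPM at GV, 3.48 and 5.96 CPM at MII, 3.10 and 1.84 CPM at 10PEA, and 6.10 and 7.26 CPM at 1C-20PEA. At 33PEA and 54PEA no library of either genotype had a count. The WT step from 1C-20PEA to 33PEA was at least 25.2-fold down but missed the threshold with an adjusted p of 0.0557. It was called by DESeq2 and limma voom, at 0.0159 and 6.75e-04, beside 34.7% and 42.1% of genes.

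KO oocytes and embryos had less even Aldh1a2 values. KO-GV had 4.76 and 10.9 CPM, and overlapped WT. Both KO-MII libraries had no count, which is at least 23.9-fold below WT-MII, whereas the D321 oocytes, also KO at MII, had 10.9 and 6.11 CPM. The MII difference had an unadjusted p of 0.0129 and an adjusted p of 1 in edgeR, which called 0 genes at MII with 707 at an unadjusted p below 0.05. DESeq2 called 219 genes there (1.27%) and limma voom 101 (0.584%), among them Aldh1a2 by voom at an adjusted p of 0.0358. At 10PEA and 1C-20PEA 1 KO library had no Aldh1a2 count and the other had 2.80 and 2.59 CPM.

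Rara and Rarg had few reads. Rara was seen at GV (0.118 to 1.47 CPM over the 4 libraries) and at MII in WT with 0.434 and 0.777 CPM, where KO-MII had no count. The D321 oocytes had 0 and 0.727 CPM and overlapped WT-MII. After MII it had 1 count in KO-10PEA, 2 in KO-1C-20PEA and none in WT. No stage difference in Rara passed.

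Rarg reached 1.55 and 2.76 CPM in WT-10PEA and had no count in WT from 1C-20PEA on. At 54PEA it was called higher in KO (adjusted p = 0.0356, with 20.9% of genes called), on 210 counts that all came from KO-54PEA replicate 2, while replicate 1 had none. The call was lost without that library, at an adjusted p of 1, and without either WT-54PEA library, at 0.168 and 0.164. That library had the fewest gene counts of the series, 1544198.

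Of the further retinoid genes, 46 were tested in oocytes and embryos. Up to 1C-20PEA edgeR called none of them in KO against WT, and 0 of all 17294 genes. At an unadjusted p below 0.05 there were 28 genes of all tested at GV, 707 at MII, 266 at 10PEA and 1048 at 1C-20PEA, while DESeq2 called 14, 219, 89 and 569 and limma voom 7, 101, 44 and 285. At 33PEA 2 rose and 3 fell, beside 10.1% of all genes called. Aldh8a1, an aldehyde dehydrogenase that can oxidise retinal, had 278 counts in KO and 0 in WT, and Tshz1 286 in KO and 6 in WT. The esterifying enzymes Dgat1 and Dgat2 had 0 counts in KO against 1583 and 1101 in WT, and the orphan receptor Nr2c1 534 against 7166. At 54PEA 13 fell and 0 rose, beside 16.9% of all genes that fell. Among the 13 were Ncoa2 with 100 counts in KO against 4771 in WT, and Ep300, a coactivator, with 0 against 2172. These counts, like those at 33PEA, are not scaled to library size. The KO-54PEA libraries held only 2755240 and 1544198 gene counts, against 6078063 and 7482076 in WT-54PEA, so the raw counts overstate the falls at 54PEA. The median gene moved by −1.07 on the log2 scale at that stage, and by −5.05 with ERCC scaling.

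Kit and Rec8, germ cell targets in testis, were also read in oocytes. Kit, which oocytes express as the receptor for follicle signals, had 44.9 to 138 CPM in WT oocytes and overlapped KO at GV and MII. The D321 oocytes, with 200 and 218 CPM, lay above WT-MII without being called. In embryos, Kit was called lower in KO at 54PEA (log2 change −3.53, adjusted p = 0.0382). It had 0 and 1.46 CPM in KO against 9.25 and 7.86 CPM in WT, on 6 counts against 138. At that stage 16.9% of all genes fell. Rec8 had 1.19 and 2.01 CPM in WT-GV and 7.56 and 17.0 CPM in KO-GV, without overlap, and no count in WT-MII beside 3.93 and 2.69 CPM in KO-MII. Neither Rec8 difference passed in edgeR (adjusted p = 1 for both). Stra8 had no count in any oocyte or embryo library.

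Across the 15 groups, the genes whose mean log2(CPM + 1) followed each gene most closely were found among 12782 genes. For Rarb they were Tgm7, Nlrp8 and Rtl4, with Pearson r of 0.982, 0.976 and 0.975. For Aldh1a2 they were Morc1, Cibar1 and Eno4, at 0.957, 0.925 and 0.921, and for Rarg Msrb3, Phldb3 and Unc13a, at 0.948, 0.942 and 0.940. For Rara they were Cyren, Ddit4l and Fshr, at 0.997 for each. The Rara and Rarg values rest mainly on the contrast of testis with oocytes, and for Aldh1a3 and Stra6, at 0 in 13 of the 15 groups, the likeness carries nothing more than that contrast. Groups share libraries of the same protocol, so these values are descriptions only.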

How the data were processed

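The 32 long RNA libraries of the series were used, 6 from testis and 26 from oocytes and embryos, and its small RNA samples were not used here. The values are read counts per gene as deposited by the authors. Per the submitters' processing notes, Trim Galore, TopHat, STAR 2.7.1a and featureCounts were used, without their roles. The genome build, the strand setting and the treatment of reads that match several genes are not given in the sources used here, so overlapping or antisense genes could not be told apart. Per the labels' protocols, testis libraries were made from RNA depleted of ribosomal RNA and the others from single oocytes or embryos with ERCC spike-ins.

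Each table had 32303 gene rows and 92 ERCC rows, which stayed out of library sizes, and 8 lines without a gene name in 1 table were dropped. Of the gene names, 31882 matched a RefSeq symbol. No 2 libraries were identical. The test was edgeR's (version 4.0.16, in R 4.3.3): TMM scaling, filterByExpr, quasi-likelihood F test and Benjamini-Hochberg adjustment over all genes tested at 0.05. Testis was fitted apart (18024 genes), and the 26 other libraries together as 13 group means (17294 genes). Alternatives used edgeR's RLE scaling, limma voom 3.58.1, DESeq2 1.42.0, no filter on low counts, ERCC or Sertoli marker scaling, a threshold of 0.01, the replicate number as a block, and each library left out in turn, where a lone library is assumed to vary like other groups. The scripts were tested on simulated data, with 100 changed genes of each size. In testis, 25 of 100 were called at a log2 size of 1 and 99 at a log2 size of 2. In oocytes and embryos, 14 of 100 were called at a log2 size of 6 and 81 at a log2 size of 12. A difference that was not called there may therefore still be present.

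A fold against a group without a count uses a floor of 3 counts over the group, and none is given against 1 to 3 counts. Floors cover counting error only, since PCR reads are not independent molecules. The labels do not say that replicates came from separate animals, so p-values measure the spread between libraries, which may be technical. Members and gene lists were chosen with earlier results of these data known. Other retinoid genes were named where they passed in testis without overlap of the groups and with the larger group mean at 5 CPM or more, at most 6 per list and direction, beside Stra8, Rec8 and Kit. A few list members count in the list totals and are not reported by name here. Rxra, Rxrb and the genes named at 33PEA and 54PEA were added after their values were seen.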

Additional observations from a re-analysis of the deposited data

Results flagged for a closer look

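Rara differed between testis and MII oocytes in the direction of the KO difference. In testis every KO library was above every WT library (log2 change 1.06), and at MII both KO libraries had no count while both WT libraries had some, 9 counts in all. The second KO MII group, D321, had 0 and 5 counts. Its mean of 0.364 CPM was below the 0.606 CPM of WT-MII, but the libraries overlapped, so no direction could be shown there. The difference between the settings was not tested, the testis and the oocytes were prepared with different kits, and the MII difference itself had an adjusted p of 1.

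The KO difference in Rarb varied between the 6 oocyte and embryo stages, by a test of the interaction with an adjusted p of 0.0199. This call was lost without WT-33PEA replicate 2 (0.0713) or WT-54PEA replicate 2 (0.0859) and with ERCC scaling (0.732). KO levels were below WT at 1C-20PEA and above it at 33PEA, without overlap at either stage. The 33PEA stage has 2 libraries of each genotype, and their rank correlations were 0.776 in WT and 0.709 in KO.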

How the results depend on the processing

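In testis the counts of called genes kept within 1.5 times under every alternative run. The signs of Aldh1a2, Stra6, Rarg and Rarb held under all of them, although a scaling that moves every gene down cannot turn a fall. Scaling to Sertoli cell markers reversed Rara (−0.37), Aldh1a3 (−0.98), Fabp5 (−0.82), Nr2f2 (−0.011), Tbl1xr1 (−0.21), Nrip1 (−0.28), Ncoa2 (−0.28), Ncoa1 (−0.66) and Tshz1 (−0.27). It ended the calls of Rdh12 (0.22) and Dhrs3 (0.23), and brought Rarb (−2.27) and Kit (−1.65) past the threshold. All these values include the shift of every gene, whose median lay at −1.35 under that scaling. Leaving out 1 library gave 3 to 5 called genes of the main set, 23 to 34 further retinoid genes and 8180 to 11524 genes in all.

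In oocytes and embryos edgeR called 2 pairs of gene and stage in KO against WT, 2 pairs of gene and WT step, and 1 gene whose difference varied between stages. Gene and stage pairs numbered 4 with limma voom, 5 with DESeq2, 0 with ERCC scaling and 0 at a threshold of 0.01. Step pairs numbered 4 with DESeq2. Genes varying between stages numbered 2 with voom and 0 with ERCC scaling. Leaving out the 54PEA stage, an alternative chosen after seeing the data, gave 1 pair of each kind, as fewer groups were tested, with Rarb at 33PEA called at a log2 change of 2.54 (adjusted p = 0.00946). Leaving out 1 library gave 0 to 2 stage pairs, 1 to 3 step pairs and 0 to 1 varying genes. The log2 difference of Rarb at MII ranged from −1.55 to 0.11, and reversed without KO-MII replicate 1. The cause was not tested for any of these.

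Correlations of the deviations of same-numbered replicates were −0.133, 0.052 and −0.056 in testis. By stage they were 0.493 at GV and 0.198 at 1C-20PEA and between −0.092 and 0.088 at the others, so the numbers were not taken to pair the samples. With the replicate number as a block, stage pairs numbered 1 and varying genes 0 (Rarb at an adjusted p of 0.0646), and Stra6 had an adjusted p of 0.0641 and Fabp5 one of 0.0671 in testis. With 2 libraries per stage and a common dispersion of 1.07, only large differences could pass.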

Other observations

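Another 5 retinoid genes were called in testis at levels under 5 CPM in both genotypes. Sall4, a factor of undifferentiated spermatogonia, fell from 4.44 to 0.564 CPM (log2 change −2.96, adjusted p = 0.00193). Cdx1, a homeobox gene induced by retinoic acid in embryos, fell from 4.87 to 0.128 CPM (log2 change −5.19, adjusted p = 1.64e-05). Akr1b10, an aldo-keto reductase that reduces retinal, fell from 1.47 to 0.0879 CPM. Meis1, a homeobox gene, rose from 1.59 to 4.47 CPM (log2 change 1.49, adjusted p = 0.00428), and Rxrg, the least expressed RXR gene here, from 0.131 to 0.534 CPM.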
